A study of Mus musculus with 23 samples.

Results

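Metallothioneins and zinc transporters were followed across brown adipose tissue (BAT) of control and BAT-Mcu-KO mice at room temperature (RT) and in the cold. The set is made of 6 genes, chosen by symbol from the 14651 genes of the table: the metallothioneins Mt1 and Mt2, the zinc-sensing transcription factor Mtf1, the zinc exporter Slc30a1 and the zinc importers Slc39a14 and Slc39a10. All 6 were found in the table. With cold exposure Mt1, Mt2, Mtf1, Slc30a1 and Slc39a14 rose in both genotypes, between 1.85-fold and 5.13-fold, while Slc39a10 fell in control mice to 0.663 of its level at RT. For comparison, 46.0% of all genes passed the test for cold in control animals, and 43.3% did so in BAT-Mcu-KO mice. None of the 6 genes passed the test for a change with the loss of Mcu at either temperature, and 0.0478% of all genes did at RT and 0.0751% at 4°C.

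The animals were male C57BL/6 mice aged 8 to 12 weeks. All 23 carried Mcu[fl/fl], alleles of the mitochondrial calcium uniporter gene with loxP sites around the second exon. BAT-Mcu-KO mice also carried Ucp1-Cre, in which the Ucp1 promoter drives Cre recombinase, so that deletion is directed to brown adipocytes and other cells of the depot keep the gene. Control mice lacked the transgene. BAT-Mcu-KO animals are called KO mice from here on. There were 6 control and 6 KO mice at RT, and 5 control and 6 KO mice at 4°C, for 6 h each. In the cold the mice were kept singly, without bedding and, as far as the sample descriptions say, without food. Whether the mice at RT were also kept singly, without bedding or without food is not given for these samples. Effects of cold, of housing and of food withdrawal thus cannot be told apart here.

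Metallothioneins are small cysteine-rich proteins that bind zinc and copper in the cytosol and buffer the free metal. When free zinc rises, the zinc fingers of MTF1 are filled, and MTF1 binds metal response elements (MREs) in the promoters of metallothioneins and of Slc30a1. The metallothionein genes are also known to be induced by glucocorticoids and by stress signals. Most proteins of the SLC30 family (ZnT) move zinc out of the cytosol, and those of the SLC39 family (ZIP) move it in. SLC30A1 (ZnT1) sits in the plasma membrane, SLC39A14 (ZIP14) also carries iron and manganese and is induced by IL-6 in the liver, and SLC39A10 (ZIP10) is known to fall when zinc is plentiful.

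Mt1 and Mt2 lie next to each other on chromosome 8 of GRCm38. Mt2 runs from 94172664 to 94173568 and Mt1 from 94179082 to 94180327, both on the plus strand, with 5513 bp between them. Mtf1 lies on chromosome 4 from 124802104 to 124849800 (plus strand) and Slc30a1 on chromosome 1 from 191906767 to 191913247 (plus strand). Slc39a10 lies on chromosome 1 from 46807544 to 46892852 (minus strand) and Slc39a14 on chromosome 14 from 70303469 to 70351425 (minus strand).

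The sequences before the starts of Mt1, Mt2 and Slc30a1 are shown because these promoters are the textbook sites of MTF1. Capitals mark matches to the MRE core, spelled TGCACNC or TGCGCNC, where the letters may stand on either strand. The sequences are from RefSeq (GRCm38.p6), plus strand, and end at the base before the gene start: chr8:94178839-94179081 for Mt1, chr8:94172368-94172663 for Mt2 and chr1:191906531-191906766 for Slc30a1.
Mt1: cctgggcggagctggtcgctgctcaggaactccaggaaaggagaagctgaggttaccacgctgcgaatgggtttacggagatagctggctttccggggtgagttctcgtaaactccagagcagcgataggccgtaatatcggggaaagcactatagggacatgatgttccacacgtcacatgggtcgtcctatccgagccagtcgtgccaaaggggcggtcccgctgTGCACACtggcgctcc
Mt2: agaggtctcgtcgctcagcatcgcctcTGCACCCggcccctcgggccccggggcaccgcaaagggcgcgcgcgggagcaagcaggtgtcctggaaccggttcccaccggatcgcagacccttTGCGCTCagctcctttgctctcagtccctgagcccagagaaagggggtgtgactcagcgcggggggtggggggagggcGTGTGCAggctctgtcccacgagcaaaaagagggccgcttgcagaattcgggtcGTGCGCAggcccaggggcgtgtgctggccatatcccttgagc
Slc30a1: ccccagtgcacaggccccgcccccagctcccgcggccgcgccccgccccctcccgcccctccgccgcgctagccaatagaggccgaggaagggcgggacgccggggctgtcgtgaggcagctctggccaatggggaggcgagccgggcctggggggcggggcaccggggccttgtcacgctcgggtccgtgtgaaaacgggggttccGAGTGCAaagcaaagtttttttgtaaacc

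Of the 6 genes, 5 had a promoter window in the RefSeq table, which covers 250 bases before to 50 bases after the RefSeq start. Slc39a14 had none. In these windows of 300 bases the MRE core was found 4 times for Mt2, 3 times for Mt1 and 2 times for Slc30a1. It was found 0 times for Mtf1 and 0 times in both windows of Slc39a10. These windows do not hold the gene starts given above. The window of Mtf1 (chr4:124802299-124802598) begins after its gene start. For Slc39a10, 1 window lies outside the gene (chr1:46925727-46926026) and 1 well within it (chr1:46853569-46853868). The sequence around those gene starts was thus not searched. Over 27025 promoters of the same length, 25.6% held at least 1 match, 7.11% at least 2, 2.00% at least 3 and 0.503% at least 4. For Mt1 only 1 of the 3 matches lies before the gene start, and the other two lie 9 and 27 bases after it. Other Mt1 transcripts are annotated to start 129 and 159 bases further on, and 4 matches lie between the gene start and the start codon.

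**Figure D1:**
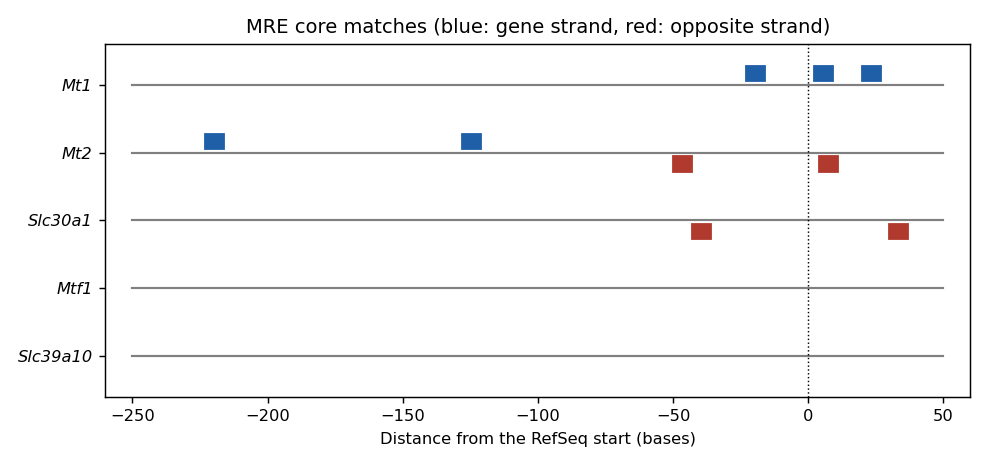
Matches to the MRE core in promoter windows of 5 genes, by distance in bases from the RefSeq start (dotted line). Blue boxes are matches on the strand of the gene and red boxes on the opposite strand. The matches number 3 for Mt1, 4 for Mt2 and 2 for Slc30a1, and the lines of Mtf1 and Slc39a10 are empty.

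Other motifs were sparser in the windows. The antioxidant response core TGACNNNGC was found once each for Mt2 and Slc30a1 and in 12.5% of all promoters. The STAT motif TTCNNNGAA was found once, in 1 of the 2 windows of Slc39a10, and in 8.47% of all promoters. That window is the one outside the gene. The cAMP response element TGACGTCA was found in 0 windows of the set and in 1.88% of all. A match of letters is not a bound site, and its absence in a window says nothing about the factor elsewhere.

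BAT RNA was read to a depth of 7129271 to 21006347 reads per mouse (median 13602248). Levels are given as normalized counts, reads scaled by a factor for each sample that evens out depth. Mcu, the targeted gene, had a normalized count of 81.4 to 136 and of 70.8 to 132 in control mice at RT and 4°C, against no more than 42.4 and 39.9 in KO mice, and each KO mouse was below each control mouse. Brown adipocyte markers were present in every group, all 11 of 11 listed. Their summed normalized count was 202424 to 286653 in control mice at RT and 297220 to 368293 at 4°C. In KO mice it was 196910 to 222684 and 309137 to 345015. With cold 4 of the 11 rose and 4 fell in control mice, and 3 rose and 1 fell in KO mice. Of all genes 46.0% and 43.3% were called by cold. Skeletal muscle markers ranged from 278 to 46397 in sum between single mice. The median sum was 2283 in control and 18858 in KO mice at RT, and 11583 and 3610 at 4°C. Of the 9 muscle markers 0 were called by cold or genotype, but their sums spread widely within each group. These tests thus could not show that the groups were alike in muscle.

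Mt1 had the highest level of the set, also per kilobase of transcript. In control mice at RT its normalized count had a lowest value of 2799, a median of 3528 and a highest value of 5155. In control mice at 4°C it was 15947, 7229.8, 7922, 9869 and 7100.5. Every control mouse in the cold thus stood above every control mouse at RT, and the mouse with 15947 was also the one with the shallowest library. In KO mice Mt1 had 2431, 3712 and 5984 (lowest, median and highest) at RT and 6516, 9259.8 and 15245 at 4°C, again without overlap. Mt1 rose 2.58-fold in control mice (log2 fold change 1.37, SE 0.23, limma adjusted p = 2.44e-05 by Benjamini-Hochberg) and 2.66-fold in KO mice (1.41, SE 0.22, limma adjusted p = 9.00e-06). Without the shallowest library the log2 fold change in control mice was 1.17. In RNA of whole tissue, a change in the share of cells of a type and in the RNA per cell cannot be told apart, here and in the results that follow.

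Mt2 moved by a larger factor. Its normalized count in control mice at RT was 288 at the lowest, 479 at the median and 684 at the highest, and in control mice at 4°C it was 3708, 1439, 1627, 2310.3 and 1484. The lowest, median and highest values in KO mice were 265, 558 and 1079 at RT, then 1331, 2088 and 3488 in the cold. For both genotypes each mouse in the cold was above each mouse at RT. The rise was 4.20-fold in control mice (log2 fold change 2.07, SE 0.31, limma adjusted p = 4.51e-06) and 4.33-fold in KO mice (2.11, SE 0.29, limma adjusted p = 1.80e-06). Most of Mt2 overlaps the antisense gene Gm45774, and 63.4% of its stretches of 25 bases also occur in other annotated transcripts, nearly all in that one. Reads were counted irrespective of strand, so the 2 transcripts cannot be told apart there. Mt1 and Mt2 shared 0 stretches of 25 bases, and the other metallothionein genes, Mt3 and Mt4, are not among the genes of the table.

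Per kilobase of the principal transcript, 549 bp for Mt1 and 511 bp for Mt2, Mt1 had 6621 ± 1649 and Mt2 948 ± 256 normalized counts (SD, n = 6) in control mice at RT. At 4°C the levels per kilobase were 17511 ± 6757 and 4136 ± 1874 (SD, n = 5). In KO mice they were 6952 ± 2297 and 1089 ± 577 at RT and 18354 ± 5461 and 4425 ± 1516 at 4°C (SD, n = 6). Mt1 was above Mt2 in each group, and the share of Mt2 grew in the cold. Over all annotated exons the gap per kilobase was smaller, with 2917 ± 726 for Mt1 and 824 ± 223 for Mt2 in control mice at RT. The ratio of Mt2 to Mt1 in normalized counts was 0.133 ± 0.0175 in control mice at RT and 0.216 ± 0.0162 at 4°C. In KO mice it was 0.139 ± 0.0309 and 0.222 ± 0.0215. Whether reads in the overlap of Mt2 with Gm45774 were counted for Mt2 or set aside is not given. The level and share of Mt2 could thus be too high or too low.

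The ratio was tested on the log2 scale with 1 value per mouse, in 4 comparisons. Its mean rose from -2.92 ± 0.20 to -2.21 ± 0.11 in control mice and from -2.88 ± 0.33 to -2.17 ± 0.14 in KO mice, a difference of 0.70 in each (exact permutation test, two-sided, p = 0.00216 for both, the smallest p these group sizes allow; 0.00433 after Benjamini-Hochberg adjustment). In both genotypes all ratios at 4°C were above all ratios at RT. Between genotypes it differed by 0.04 at RT (exact p = 0.801) and by 0.04 at 4°C (exact p = 0.615), each 0.801 after adjustment and both well within the spread of mice.

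**Figure D2:**
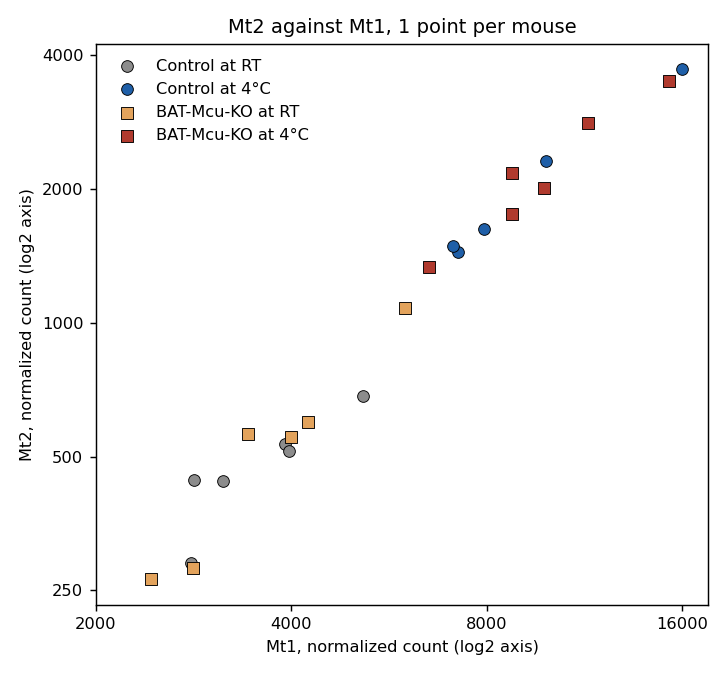
Normalized count of Mt2 against that of Mt1, both on log2 axes, with 1 point per mouse for the 23 mice of 4 groups. The points lie along 1 band, with the mice at 4°C at its upper end and Mt2:Mt1 ratios of about 0.216 and 0.222 there against 0.133 and 0.139 at RT.

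Mice with more Mt1 also had more Mt2 within a group. Across the 6 control mice at RT, Pearson's r of the log2 levels was 0.877 (exact permutation p = 0.0167) and Spearman's rho 0.886 (exact p = 0.0333). In the 6 KO mice r was 0.971 at RT (exact p = 0.00278, rho 0.943 with exact p = 0.0167) and 0.968 at 4°C (exact p = 0.00417, rho 0.943 with exact p = 0.0167). After Benjamini-Hochberg adjustment over the 3 groups the exact p of r was 0.0167, 0.00625 and 0.00625, and that of rho 0.0333, 0.025 and 0.025. Without the 2 mice farthest from the median of Mt1, r was 0.948, 0.896 and 0.847. The relation was not computed in the control mice at 4°C, since groups of fewer than 6 mice were left out. The 2 levels of a mouse come from 1 library.

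Mtf1, which encodes the zinc sensor, rose about 2-fold in the cold. It had 84.9, 115 and 163 normalized counts (lowest, median and highest) in control mice at RT and 206, 250.4, 261, 222 and 267 in control mice at 4°C. In KO mice it had 84.9, 115 and 126 at RT and 139, 224 and 246 at 4°C. The groups did not overlap by temperature in either genotype, although 1 KO mouse at 4°C, with 139, stood apart from the others, of which the next had 214. On the log2 scale Mtf1 rose by 1.02 in control mice (SE 0.16, limma adjusted p = 1.08e-05) and 0.97 in KO mice (SE 0.15, limma adjusted p = 1.17e-05). The protein-coding gene 1110065P20Rik overlaps the end of Mtf1 on the opposite strand and shares most of the 7.93% of its 25-base stretches found elsewhere.

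Slc30a1, the exporter at the plasma membrane, rose in both genotypes. Control mice had 55.7, 90.6 and 106 normalized counts at RT (lowest, median and highest) and 225, 103, 116, 231 and 156 at 4°C. Of the 5 control mice in the cold, 4 were above every control mouse at RT and 1, with 103, fell within their range. KO mice had 49.5, 67.6 and 92.3 at RT and 118, 175 and 384 at 4°C, without overlap. On the log2 scale the rise was 0.89 in control mice (SE 0.26, limma adjusted p = 0.00633) and 1.39 in KO mice (SE 0.25, limma adjusted p = 5.66e-05). The difference between these, the interaction, was 0.50 with a 95% interval from -0.24 to 1.23 (limma adjusted p = 0.873), so a difference in response by genotype was not shown. Without the highest KO mouse at 4°C the log2 fold change there was 1.17. The antisense gene 1700034H15Rik overlaps the start of Slc30a1 and holds 8.49% of its 25-base stretches.

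Slc39a14 rose with cold in both genotypes, with the largest log2 fold change of the 6 genes in control mice. Its normalized count in control mice was 60.8, 94.1 and 178 at RT (lowest, median and highest) and 969, 266, 421, 648 and 457 at 4°C. KO mice ranged around a median of 126 at RT (104 to 151) and of 563 in the cold (270.5 to 934). No mouse in the cold overlapped with a mouse at RT, although the mice at 4°C differed among themselves more than 3-fold. In control mice the log2 fold change was 2.36 (SE 0.30, limma adjusted p = 5.81e-07) and 2.15 in KO mice (SE 0.29, limma adjusted p = 1.22e-06). The value in KO mice was close to that of Mt2 (2.11), and the order of these genes turned without 1 mouse, as without replicate 4 at RT (2.18 for Slc39a14 and 2.34 for Mt2). Without the shallowest library, which also had the highest count, it was 2.12 in control mice.

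Slc39a10 went the other way. Control mice had 60.8, 87.0 and 150.1 normalized counts at RT (lowest, median and highest) and 58.7, 51.6, 58.5, 65.4 and 71.4 at 4°C. Of the control mice in the cold, 3 of 5 were below every control mouse at RT and the groups overlapped. In KO mice the counts were 72.4, 83.0 and 124 at RT and 57.8, 73.1 and 95.1 at 4°C, with 3 of 6 mice in the cold below every mouse at RT. Its log2 fold change with cold was -0.59 for controls (SE 0.19, limma adjusted p = 0.0129) and -0.28 in KO mice (SE 0.18, 95% interval -0.65 to 0.09, limma adjusted p = 0.225). Slc39a10 was thus called in control mice and not in KO mice, but the difference between the genotypes was itself not shown (interaction 0.31, 95% interval -0.23 to 0.85, limma adjusted p = 0.888). These counts rest on 29 to 145 reads per mouse, the lowest depth of the set.

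**Figure D3:**
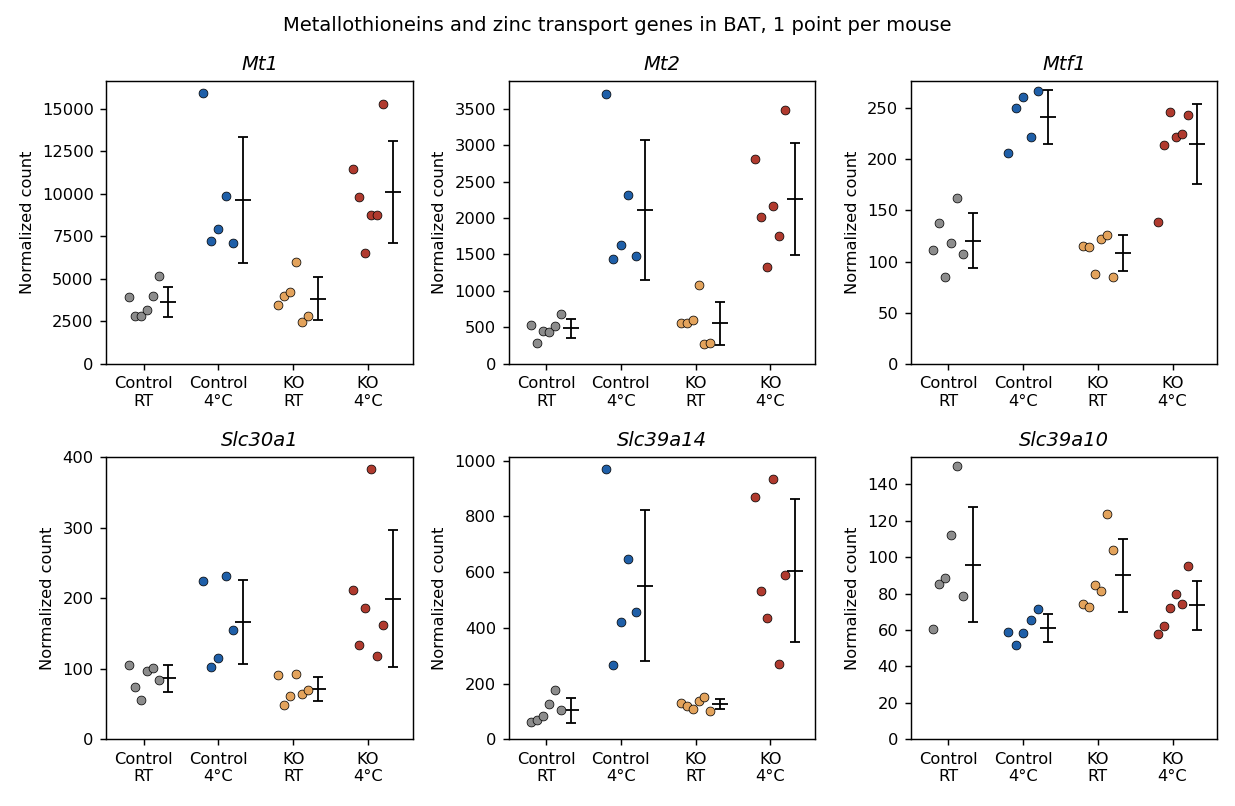
Normalized counts of the 6 genes, with 1 point per mouse in the 4 groups and the mean with SD beside the points; each panel has its own linear axis from 0. Mice at 4°C lie above mice at RT for Mt1, Mt2, Mtf1 and Slc39a14 in both genotypes, Slc30a1 overlaps by 1 control mouse, and Slc39a10 lies lower at 4°C with overlap.

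In control mice all 6 genes were changed by cold, 5 higher and 1 lower, where 46.0% of the 14651 genes were called, 22.3% higher and 23.7% lower. In KO mice 5 of 6 were higher and 0 lower, against 43.3% of all genes called, 21.4% higher and 21.9% lower. The mice at 4°C all lay above those at RT for 4 of 6 genes in control mice, as for 13.0% of all genes, and for 5 of 6 in KO mice, as for 12.4% of all genes. The median log2 fold change of the set was 1.19 in control and 1.40 in KO mice, and that of all genes was -0.02 in both. The alternatives of scaling moved this all-gene median to -0.14 at most.

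At RT 0 of 6 genes were changed by genotype, where limma called 0.0478% of all genes. Their log2 fold changes, KO against control, ran from -0.27 for Slc30a1 to 0.36 for Slc39a14, and the smallest adjusted p was 0.983 (limma). At 4°C 0 of 6 were changed, against 0.0751% of all genes, with values from -0.18 for Mtf1 to 0.25 for Slc39a10 and a smallest adjusted p of 0.827 (limma). For the interaction of genotype and temperature limma called 0% of all genes and 0 of 6 of the set, with values from -0.21 for Slc39a14 to 0.50 for Slc30a1. In none of these 3 comparisons had a gene of the set an unadjusted p under 0.05, and DESeq2 and edgeR called 0 of 6 in each as well. Of all 14651 genes, 878 had an unadjusted p under 0.05 for the interaction in limma. Chance alone would pass a share of about 0.05 of all genes, and how 878 compares with that share was not tested. DESeq2 called 28 genes and edgeR 0.

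The intervals give the effects of genotype that these data leave possible. For Mt1 the 95% interval of the log2 fold change was -0.41 to 0.49 at RT and -0.38 to 0.56 at 4°C, and for Mtf1 it was -0.45 to 0.18 and -0.51 to 0.15. For Mt2 the interval was wider, -0.52 to 0.68 at RT and -0.50 to 0.76 at 4°C. For Slc39a14 it reached up to 0.95 at RT, from -0.23, and up to 0.77 at 4°C, from -0.47.

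**Figure D4:**
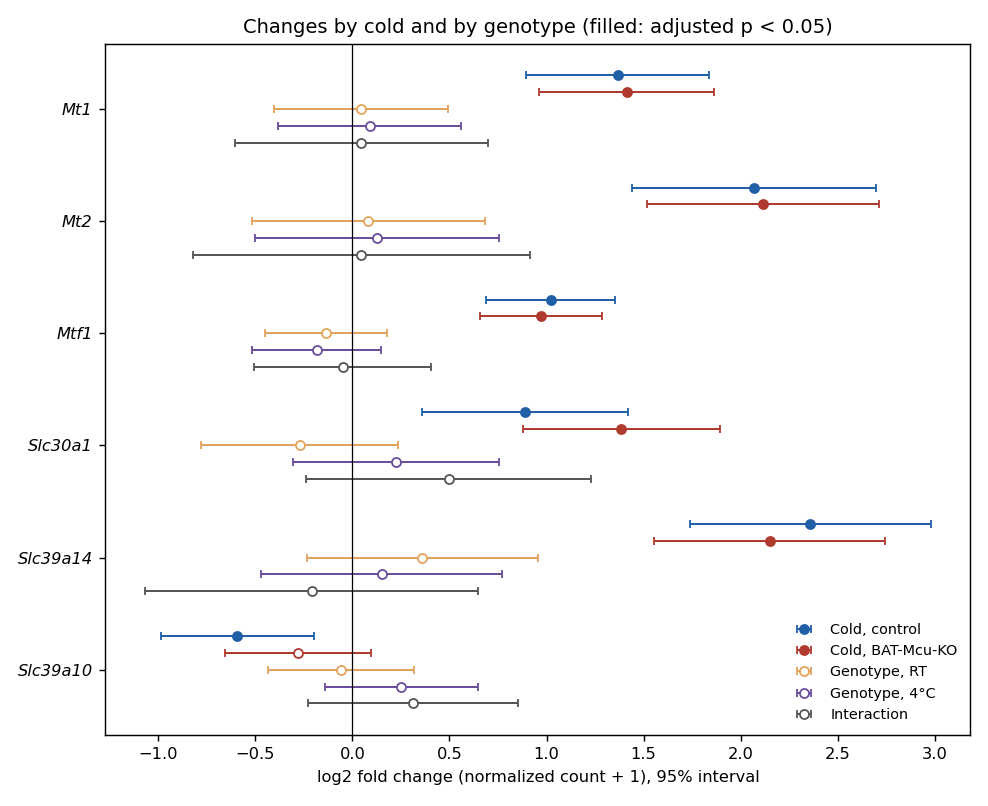
Log2 fold changes of the 6 genes with 95% intervals for cold in each genotype, genotype at each temperature, and their interaction; filled points passed an adjusted p of 0.05 in limma. The filled points are those of cold, 6 in control and 5 in KO mice, and every interval of the genotype and interaction comparisons covers 0.

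The order of the genes by level per kilobase of principal transcript changed in the cold below the metallothioneins. In control mice at RT Slc39a14 had 21.1 ± 8.89, Slc39a10 17.4 ± 5.70, Slc30a1 16.5 ± 3.61 and Mtf1 15.8 ± 3.52 normalized counts per kilobase (SD, n = 6), and these neighbours did not differ beyond their spread. At 4°C Slc39a14 led with 112 ± 54.8, followed by Slc30a1 with 31.7 ± 11.4, Mtf1 with 31.6 ± 3.44 and Slc39a10 with 11.1 ± 1.37 (SD, n = 5). Of these, Slc30a1 and Mtf1 did not differ beyond their spread. KO mice at 4°C had the same order, with 123 ± 51.8, 38.0 ± 18.5, 28.2 ± 5.16 and 13.4 ± 2.41 (SD, n = 6), and at RT they had 25.6 ± 3.59 for Slc39a14, 16.4 ± 3.62 for Slc39a10, 14.2 ± 2.30 for Mtf1 and 13.6 ± 3.27 for Slc30a1. These levels depend on the length taken. Over all annotated exons, Slc39a14 had 9.86 ± 4.15 and Mt1 2917 ± 726 per kilobase in control mice at RT, which puts Slc39a14 last in that group.

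Beyond the set, the cold response of the zinc transporter families was mixed. Of the 10 SLC30 genes listed 7 are in the table. In the cold 3 were higher and 0 lower in control mice, and 4 higher and 0 lower in KO mice. Of the 14 SLC39 importer genes 11 are in the table, and 4 were higher and 3 lower in control mice, and 3 higher and 2 lower in KO mice. The median log2 fold change was 0.31 and 0.42 for SLC30 genes and -0.22 and -0.23 for SLC39 genes. Of all genes 46.0% were called in control mice (22.3% higher, 23.7% lower) and 43.3% in KO mice (21.4% higher, 21.9% lower). The share of SLC39 genes called in KO mice and that of SLC30 genes called in control mice were near that background. Without Slc30a1, Slc39a10 and Slc39a14, 15 genes remained, of which 5 were higher and 2 lower in each genotype. The total called among these was also near the share of all genes.

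Among SLC30 genes, Slc30a9 rose from 454 ± 70.7 to 811 ± 153 in control mice (log2 fold change 0.83, limma adjusted p = 2.66e-05) and by 0.42 on the log2 scale in KO mice (limma adjusted p = 0.0125). Slc30a4 rose in KO mice (0.85, limma adjusted p = 0.00137) and had a value of 0.31 in control mice that did not pass (adjusted p = 0.238). Slc30a6 rose in KO mice (0.34, adjusted p = 0.0369) and had 0.23 in control mice (limma adjusted p = 0.183). The call of Slc30a6 was lost without any 1 of 7 KO mice (replicates 1, 4, 5 and 6 at RT and 2, 3 and 6 at 4°C, largest limma adjusted p = 0.107), with the replicate block (0.0530), with 75th percentile scaling (0.0769) and with only the compared groups fitted (0.0610). Slc30a2 was called in control mice at very low levels, with a highest normalized count of 2.18 at RT and 18.2 at 4°C. Its call was lost without control replicate 2, 4 or 5 at 4°C (largest limma adjusted p = 0.0818) and with only the compared groups fitted (0.0632), and its log2 fold change ran from 0.78 to 4.85 over the alternatives that kept all mice. Slc30a5 and Slc30a7 were not called in either genotype.

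Among importers, Slc39a6 (ZIP6), the closest relative of Slc39a10, rose where Slc39a10 did not. It went from 57.5 ± 4.87 to 132 ± 19.1 in control mice (log2 fold change 1.18, limma adjusted p = 9.10e-07) and from 49.9 ± 9.66 to 118 ± 26.8 in KO mice (1.22, limma adjusted p = 2.62e-07), without overlap in either genotype. Slc39a9, an importer of the Golgi and plasma membrane, rose by 0.46 and 0.56 on the log2 scale (limma adjusted p = 4.72e-05 and 1.83e-06), also without overlap. Slc39a7, which releases zinc from the endoplasmic reticulum, rose in control mice (0.75, adjusted p = 0.0134) and had 0.31 in KO mice (limma adjusted p = 0.307).

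Slc39a11 fell in both genotypes, from 133 ± 16.3 to 70.5 ± 24.6 in control mice (log2 fold change -0.97, limma adjusted p = 7.40e-05) and from 128 ± 17.9 to 76.7 ± 9.66 in KO mice (-0.73, adjusted p = 0.00104). Slc39a13 was called lower in control mice (-0.54, adjusted p = 0.00142) and not in KO mice (-0.27, limma adjusted p = 0.0791). In KO mice Slc39a13 passed with 75th percentile scaling and without replicate 2 or 6 at 4°C (smallest limma adjusted p = 0.00542). Slc39a1 (ZIP1) had -0.33 in control (adjusted p = 0.0838) and -0.42 in KO mice (limma adjusted p = 0.0217), and neither verdict was stable. In KO mice the call was lost without replicate 1 or 6 at RT or replicate 3 at 4°C (largest limma adjusted p = 0.0664). In control mice it was gained with quantile normalization or 75th percentile scaling and without replicate 6 at RT or 5 at 4°C (smallest limma adjusted p = 0.0176). Differences between the genotypes in these responses were not shown, since no gene of either family passed the interaction test in limma (smallest adjusted p = 0.831). Slc39a2, Slc39a3 and Slc39a8 were not called.

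**Figure D5:**
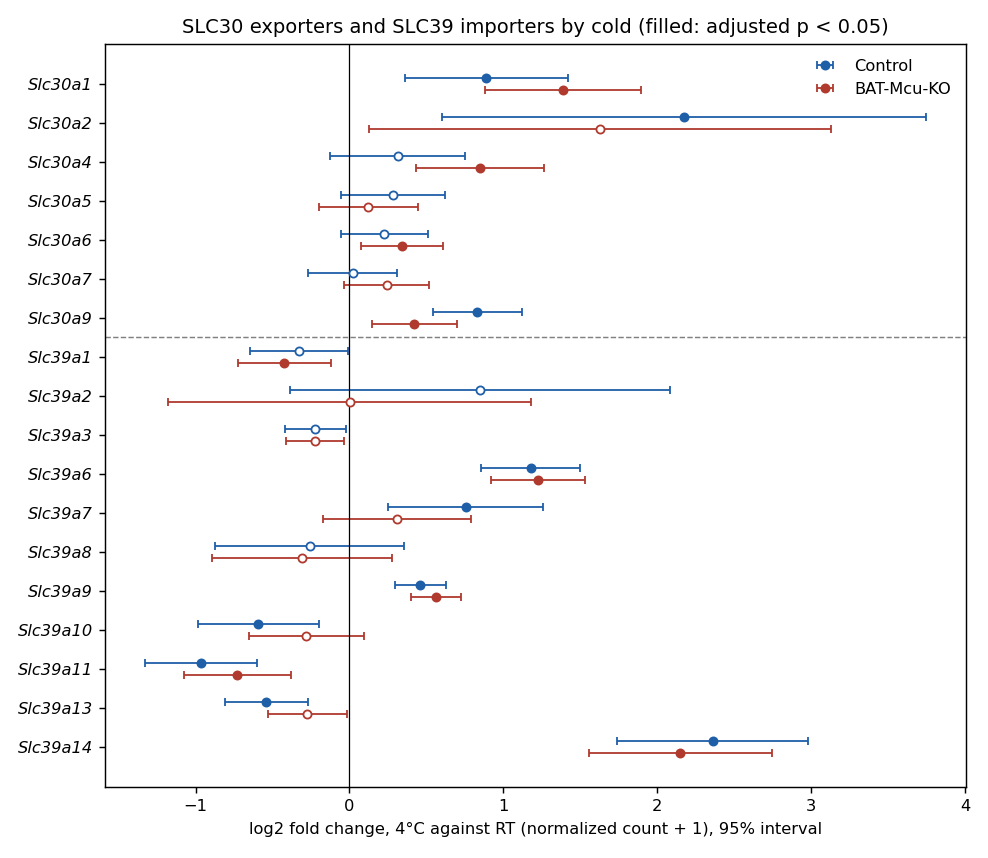
Log2 fold change from RT to 4°C with its 95% interval for the 7 SLC30 genes (above the dashed line) and 11 SLC39 genes in the table, in control (blue) and KO mice (red); filled points passed an adjusted p of 0.05 in limma. Slc39a14 has the largest value, 2.36 and 2.15, while Slc39a1, Slc39a3, Slc39a8, Slc39a10, Slc39a11 and Slc39a13 lie below 0 in both genotypes.

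Genes of pathways linked to metallothioneins by metal or by inducer were counted as lists. Of 12 copper-handling genes 10 are in the table, with 2 higher and 6 lower in the cold in control mice and 2 higher and 3 lower in KO mice, and with median log2 fold changes of -0.40 and -0.20. Of all genes 23.7% and 21.9% were lower and 46.0% and 43.3% called, and the count in KO mice was near that share. Slc31a1, the copper importer CTR1, rose (log2 fold change 0.67 in control and 0.56 in KO mice, limma adjusted p = 0.000135 and 0.000630), while Ccs, the copper chaperone of superoxide dismutase, fell in both (-1.21 and -0.86, adjusted p = 1.69e-09 and 2.11e-07). Steap4, a metalloreductase, fell as well (-0.82 and -0.76, adjusted p = 0.00423 and 0.00613). Atox1, the chaperone that delivers copper to the secretory pathway, was lower in control mice (-0.38, adjusted p = 0.0140) and had -0.11 in KO mice (limma adjusted p = 0.495).

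Of 10 glucocorticoid-induced genes, all in the table, 6 were higher and 1 lower in control mice and 5 higher and 0 lower in KO mice, with medians of 0.82 and 0.57. Of all genes 22.3% and 21.4% were higher, and the total called in KO mice was near the 43.3% of all genes. Sgk1 and Dusp1, a kinase and a phosphatase that glucocorticoids induce, rose by 1.74 and 2.59 on the log2 scale in control mice (limma adjusted p = 2.07e-09 and 2.29e-07) and by 1.79 and 3.05 in KO mice (adjusted p = 5.95e-10 and 7.77e-09). Klf9 rose by 0.76 and 0.62 (limma adjusted p = 1.09e-06 and 9.79e-06). Angptl4 fell in control mice (-0.60, adjusted p = 0.00304) and had -0.22 in KO mice (limma adjusted p = 0.252), where it passed with quantile normalization (0.0361).

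Of 11 genes of the IL-6 and STAT3 pathway 9 are in the table, with 2 higher and 1 lower in control mice and 3 higher and 1 lower in KO mice, and with medians of 0.41 and 0.55, where 46.0% and 43.3% of all genes were called, so the list had no more calls than the background in control mice and about as many in KO mice. Il6ra, a receptor subunit for IL-6, rose by 0.69 and 0.78 (limma adjusted p = 0.0300 and 0.0116) and Cebpd by 1.54 and 1.52 at low counts (adjusted p = 0.00283 and 0.00235). Cish, a feedback inhibitor of STAT signalling, fell (-1.66 and -2.62, limma adjusted p = 0.00288 and 1.30e-05). The call of Il6ra in control mice was lost without replicate 1 at RT, without replicate 1 or 4 at 4°C (largest limma adjusted p = 0.0920) and with 75th percentile scaling (0.0660). Bcl3 rose in KO mice (0.62, adjusted p = 0.0189) and had 0.50 in control mice (limma adjusted p = 0.0635). The call in KO mice was lost without replicate 3 or 4 at RT or 5 at 4°C (largest limma adjusted p = 0.0567), and one in control mice was gained without replicate 1 at RT or 2 at 4°C and with quantile normalization (smallest 0.0308).

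Some markers of other cells were called by temperature, where 46.0% of all genes were called in control and 43.3% in KO mice. In control mice the endothelial and white adipocyte lists were above that share, and the macrophage, red cell and fibroblast lists below it. In KO mice the endothelial and macrophage lists were above it, and the red cell, white adipocyte and fibroblast lists below. The summed normalized count of 6 endothelial markers was 3947 to 5101 in control mice at RT and 6031 to 9518 at 4°C, and 4063 to 5115 and 5581 to 7961 in KO mice. In each genotype 3 of the 6 rose (Pecam1, Kdr and Esam) and 1 fell (Tie1). Of 8 macrophage markers 2 rose in control and 5 in KO mice, with sums of 838 to 1214 at RT and 959 to 1487 at 4°C in control mice and 689 to 1235 and 1222 to 1683 in KO mice. Of 5 red cell markers 0 were called, of 3 white adipocyte markers 2 fell in control and 1 in KO mice, and of 5 fibroblast markers 0 were called in control mice and 1 rose in KO mice. Of 6 lymphocyte markers only Cd79a is in the table, and it was lower in the cold in KO mice (log2 fold change -1.91, limma adjusted p = 0.00691) at means of 9.25 and 1.88 normalized counts, with -0.77 in control mice (adjusted p = 0.294). The defining markers Cd3e and Ly6g are not among the genes of the table. The part of these cells in the changes of the metallothionein and zinc transport genes was not tested.

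The genes that varied most like each member from mouse to mouse were found by Pearson's r of the deviations from the group means over the 23 mice, among the 9531 genes whose mean over all mice reached 50 normalized counts. For both metallothioneins the other one came first (r = 0.950), followed by Txn1, which encodes thioredoxin (r = 0.846 with Mt1 and 0.845 with Mt2), and Cyb5a, which encodes cytochrome b5 (0.808 and 0.775). For Slc39a14 they were Coro2b, Rad21 and Net1 (0.831, 0.819 and 0.80), for Slc30a1 Litaf, Dirc2 and Asl (0.822, 0.763 and 0.762), for Slc39a10 Btaf1, Ncoa6 and Adgrf5 (0.812, 0.793 and 0.792), and for Mtf1 Ndel1, Ago3 and Brwd3 (0.742, 0.740 and 0.731). Within the set the next closest pair was Slc30a1 with Slc39a14 (r = 0.676), while Mtf1 had r = -0.15 with Mt1 and -0.18 with Mt2. These values describe 23 libraries of 4 groups, and genes of 1 library share its depth and tissue composition.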

How the data were processed

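RNA was taken from BAT of 23 mice, 1 library each. The authors made Smart-seq2 libraries, aligned the paired reads to mm10 with STAR 2.4.0j, counted uniquely mapped exonic reads per GENCODE M7 gene with HTSeq irrespective of strand, and deposited normalized counts, a signal in which the counts of a sample are divided by the DESeq2 size factor. The deposited table holds 14651 genes. A second deposited table holds the authors' own fold changes and p-values and was not used.

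From the normalized counts, log2(value + 1) was tested with limma 3.58.1 in R 4.3.3, with the mean trend, 4 group means over all 23 mice and Benjamini-Hochberg adjustment over 14651 genes; a gene was called at an adjusted p under 0.05. Fold changes are on that scale. The steps were tested on simulated data. Ratios and within-group correlations used exact permutation tests (scipy 1.17.1). Whole reads were recovered from the steps of the values (100% of values whole within 0.1), giving depths of 7129271 to 21006347 reads, and DESeq2 1.42.0 and edgeR 4.0.16 were run on them as alternatives. Other alternatives were the pseudocount, a filter on low values, scaling, the variance trend, the groups fitted, a replicate block, and leaving out each mouse.

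Groups came from the sample labels. Nothing says how mice were assigned to litters or library batches. Positions are from GENCODE M21 on GRCm38, with promoters from RefSeq (GRCm38.p6). Genes named are the members, the 3 genes most like each member, all SLC30 and SLC39 genes, and of each other list the 4 most abundant genes called in the cold. The members, lists and tests were chosen with earlier results of these data known.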

Additional observations from a re-analysis of the deposited data

Results flagged for a closer look

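Of the 28 groups of mice checked for a single outlying mouse, 2 held one by Dixon's test at the 95% level, where chance gives about 1 in 20. The lowest Mtf1 value of BAT-Mcu-KO mice at 4°C, 139 normalized counts in replicate 1, was set off from the next mouse (214) by 0.701 of the range of the group, above the critical 0.625. Without this mouse the log2 fold change of Mtf1 in BAT-Mcu-KO mice was 1.09 (adjusted p = 1.13e-06, limma). The highest Slc30a1 value of BAT-Mcu-KO mice at 4°C, 384 in replicate 4, was set off from the next mouse (212) by 0.645 of the range. Without it the log2 fold change of Slc30a1 was 1.17 (adjusted p = 0.000156, limma).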

How the results depend on the processing

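The number of the 6 genes called (6 and 5 for cold in control and BAT-Mcu-KO mice, 0 for genotype at RT, at 4°C and for the interaction) was the same under every alternative run. Without 1 mouse the log2 fold change with cold ran, in control and BAT-Mcu-KO mice, from 1.17 to 1.47 and 1.28 to 1.55 for Mt1, 1.84 to 2.18 and 1.93 to 2.34 for Mt2, and 2.12 to 2.59 and 2.00 to 2.36 for Slc39a14. Over all genes, the 7 called for genotype at RT became 3 with only the compared groups fitted and 20 with DESeq2. The 11 called at 4°C became 7 without the variance trend, 2 with the compared groups, 27 with DESeq2, 6 with edgeR and 3 to 16 without 1 mouse (16 without control replicate 1 and 3 without control replicate 2). The 0 called for the interaction became 28 with DESeq2 and 0 to 1 without 1 mouse. The cause was not tested. With 75th percentile scaling 2588 genes were higher and 4383 lower in the cold in control mice, against 3269 and 3466. The replicate block gave 6610, 6376, 7, 7 and 0 calls, in the order above. Whether mice with the same number share a litter or batch is not given. The correlation of their deviations averaged -0.01 for cold in control, -0.16 for cold in BAT-Mcu-KO and -0.09 for genotype at RT. For genotype at 4°C it averaged 0.21, where 4 of 5 pairs passed 0.1 and 2 were most alike within their own number. Small values that never passed the test changed sign. The interaction became -0.00832 (replicate block) and -0.00239 (DESeq2) for Mt1, -0.10 for Mt2 (DESeq2 and edgeR), and 0.0109 (quantile normalization) and 0.0197 (75th percentile) for Mtf1. Without 1 mouse the genotype value at RT ran from -0.10 to 0.16 for Mt1, -0.14 to 0.26 for Mt2 and -0.18 to 0.0808 for Slc39a10, that at 4°C from -0.0403 to 0.29 for Mt1, -0.0106 to 0.36 for Mt2 and -0.0786 to 0.39 for Slc39a14, and the interaction from -0.0835 to 0.25 for Mt1, -0.14 to 0.27 for Mt2, -0.14 to 0.0719 for Mtf1 and -0.44 to 0.0263 for Slc39a14. Depth limits Slc39a10 most, at 29 to 145 reads a mouse.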
